A study of Sus scrofa with 70 samples.

Results

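The prostate gland and the bulbourethral gland, accessory glands that open into the male urethra, were compared by gene expression in 12-month-old boars. The comparison took 11 of the 30 RNA-seq libraries of the series, namely 5 prostate gland libraries (PG) and 6 bulbourethral gland libraries (BG), and all 35552 genes of the table were followed in them, of which 14447 passed the filter on low values (at least 1 TPM in 3 libraries). The pigs were of 2 related stocks: the Banna mini-pig inbred line (BMI), which was derived by inbreeding from Diannan small-ear pigs, and the Diannan small-ear pig itself (DSE). PG was represented by BMI replicates 1 and 3 and DSE replicates 1 to 3, and BG by 3 replicates of each stock, all from snap-frozen tissue of adult males; no treatment or altered gene is given for any group. The labels do not say that replicates came from separate boars, so the p-values measure the spread between these libraries, which may be technical. Each value is in TPM, a relative level per length of transcript that adds to the same total in every library, summed over the transcripts of a gene, and a log2 difference is that of log2(TPM + 1) in PG minus BG, from a linear model with stock as covariate, given with its standard error. A gene was called higher in a gland at an adjusted p below 0.05 and a log2 difference of at least 1.

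The prostate secretes a fluid rich in small proteins and enzymes and, in some mammals, in citrate and zinc. Its epithelium keeps HOXB13, a homeobox factor of the hindmost body region, throughout life. The bulbourethral gland is a mucous gland: its cells fill with heavily sialylated mucin, which in the boar forms the gel plug of the ejaculate. Mucous cells fold and package mucins with the help of AGR2, a disulphide isomerase of the endoplasmic reticulum, and co-secrete trefoil peptides such as TFF3.

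The labels of both glands were checked against these genes. All 5 PG libraries had MSMB, the main small secretory protein of the prostate, and HOXB13, while all 6 BG libraries had TFF3, MUC5B and high AGR2. The library labelled BMI PG replicate 2 was left out by rule: it held MSMB at 88607 TPM and HOXB13 at 92.7 TPM together with 322974 TPM summed over spermadhesins and other vesicular gland genes, among them PSP-I at 169569 TPM, against 1.04 to 9.2 TPM of PSP-I in the other PG libraries. The long-read library labelled BMI prostate gland went against its label as well, and is described with the Iso-seq values. DSE PG replicate 2 held SAL1, a salivary lipocalin that binds pheromones, at 60580 TPM, and BMI PG replicate 3 had 166599 TPM in genes of the mitochondrial genome, against 48721 to 80091 TPM in the other 10 libraries. Between 12533 and 14214 genes reached 1 TPM in each of the 11 libraries, and the 10 most abundant genes held 42.4 to 56.2% of all TPM in PG and 28 to 43.8% in BG. The deposited values carry no read counts, and the study's separate list of read totals was not used here, so no counting interval is given.

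PG and BG differed in 1556 of 14447 genes tested (10.8%). Of these, 467 were higher in PG (3.23% of the genes tested) and 1089 were higher in BG (7.54%), and in 1153 of the 1556 the libraries of the glands did not overlap. All PG libraries lay above all BG libraries in 3.58% of the genes tested, and all BG libraries above all PG libraries in 12.8%. The median log2 difference over all genes was -0.22, and the split of the calls moved with the scaling: size factors from the median of ratios brought that median to -0.01 and the calls to 694 in PG and 748 in BG, while rescaling without the 50 most abundant genes gave 978 in PG and 785 in BG. Large differences were fewer in PG, with 15 genes above 4 on the log2 scale, than in BG, with 51.

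**Figure D1:**
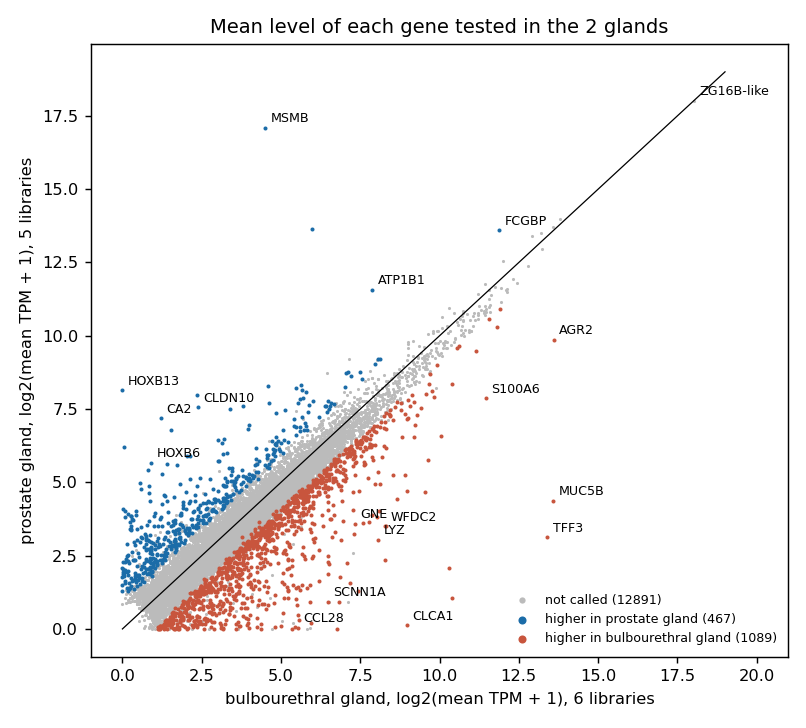
Mean level of each of the 14447 genes tested, as log2(mean TPM + 1) over 6 bulbourethral gland libraries (horizontal) and 5 prostate gland libraries (vertical), with the line of equal levels. MSMB, HOXB13 and CA2 stand above the line and TFF3, MUC5B and CLCA1 below it, while the ZG16B-like gene lies on it at the top right; genes called higher are coloured (467 in PG, 1089 in BG).

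MSMB, beta-microseminoprotein, was the gene with the largest difference in the PG direction (chr14:90532004-90582765, minus strand). It stood at 162360 and 178304 TPM in the BMI and 102927, 150343 and 106333 TPM in the DSE libraries of PG, and at 13.7 to 33.4 TPM (median 19.4) in BG. The lowest PG library stood more than 3 orders of magnitude above the highest BG library. The log2 difference was 12.68 ± 0.26, adjusted p = 4.05e-11. Testis and epididymis had means of 46.4 and 50.4 TPM and the vesicular gland 6.89 TPM.

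HOXB13 (chr12:24945603-24950714, minus strand) was the second leading gene of PG. It stood at 264 and 287 TPM in the BMI and 294, 265 and 297 TPM in the DSE libraries of PG, and was listed at 0 in all 6 BG libraries, in all vesicular gland and epididymis libraries, and at a mean of 0.0689 TPM in testis. The PG values lay within a narrow band, 281 ± 16.2 TPM (SD, n = 5), in both stocks. No fold is given against a gland listed at 0 (log2 difference 8.14 ± 0.11, adjusted p = 8.36e-13).

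The stretch just before the start of MSMB is printed because no other gene separated the glands by as much, and that of TFF3 because it was the leading gene of BG. Both are 250 bases of the Sscrofa11.1 genome, 5′ to 3′ on the strand of the gene, ending at the base before the most upstream start among its Iso-seq, Ensembl and RefSeq transcripts near the Iso-seq start, and capitals mark the motifs found. The MSMB window lies at chr14:90542310-90542559 (minus strand), inside the gene as annotated, which spans more than the MSMB of RefSeq, and before the start given by Iso-seq and RefSeq; capitals mark TGTTTAC, a forkhead factor site, read on the opposite strand at bases -183 to -177 and -95 to -89 from the start. The TFF3 window lies at chr13:205644335-205644584 (minus strand), where capitals mark TATAAA, the TATA box, at bases -29 to -24.
MSMB: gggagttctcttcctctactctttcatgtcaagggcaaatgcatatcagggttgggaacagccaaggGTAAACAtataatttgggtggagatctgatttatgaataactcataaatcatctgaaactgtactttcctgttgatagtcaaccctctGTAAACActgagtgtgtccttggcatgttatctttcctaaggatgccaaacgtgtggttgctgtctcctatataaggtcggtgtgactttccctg
TFF3: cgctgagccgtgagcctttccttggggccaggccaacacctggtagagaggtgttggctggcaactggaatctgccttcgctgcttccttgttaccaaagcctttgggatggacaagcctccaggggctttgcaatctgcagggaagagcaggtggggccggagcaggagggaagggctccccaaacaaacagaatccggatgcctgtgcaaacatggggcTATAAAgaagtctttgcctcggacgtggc
Both strands were searched. TGTTTAC was in 2.14% of the 13100 promoters of tested genes that could be read, in 3.22% of 404 promoters of genes higher in PG and in 2.83% of 991 of genes higher in BG. TATAAA was in 6.83%, 7.43% and 9.59% in the same order. The other motifs given here were CCAATAAA for HOXB13 (0.901%, 0.0% and 0.505%) and TGACGTG for the unfolded protein response (1.65%, 1.24% and 2.42%); neither was in the MSMB or TFF3 window. These matches are letters in a window and were not tested as binding sites.

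CA2 and CLDN10 followed HOXB13 in size of difference among the named genes of PG. CA2, a cytosolic carbonic anhydrase that makes bicarbonate, stood at 148 and 71.1 TPM in the BMI and 236, 69.5 and 201 TPM in the DSE libraries of PG, and at 0.965 to 2.08 TPM (median 1.17) in BG (log2 difference 5.79 ± 0.32, adjusted p = 2.24e-07). CLDN10, a claudin that forms ion-selective pores in tight junctions, had 187 ± 34.1 TPM (SD, n = 5) in PG and 4.19 ± 2.05 TPM (SD, n = 6) in BG (log2 difference 5.25 ± 0.26, adjusted p = 1.21e-07). Neither gene overlapped between the glands. ATP1B1, the beta subunit of the sodium pump, was among the abundant genes of PG, at 2277 and 2709 TPM in the BMI and 3026, 3264 and 3986 TPM in the DSE libraries of PG, and at 120 to 312 TPM (median 232) in BG, a ratio of means of 13.1 (log2 difference 3.69 ± 0.18, adjusted p = 1.14e-07).

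EGF, the epidermal growth factor precursor, stood at 144 and 161 TPM in the BMI and 222, 171 and 262 TPM in the DSE libraries of PG, and at 9.04 to 19.7 TPM (median 12.4) in BG, a ratio of means of 14.8 (log2 difference 3.78 ± 0.22, adjusted p = 2.74e-07). DPP4, a membrane peptidase that trims dipeptides, had 58.8 ± 7.37 TPM (SD, n = 5) in PG and 3.14 ± 2.25 TPM (SD, n = 6) in BG (log2 difference 4.11 ± 0.30, adjusted p = 1.9e-06). GATA2, a zinc finger transcription factor, had 47 ± 14 TPM (SD, n = 5) in PG and 2.28 ± 0.672 TPM (SD, n = 6) in BG (log2 difference 3.82 ± 0.19, adjusted p = 1.23e-07). For these 3 genes the lowest PG library was well above the highest BG library in both stocks. RGL3, a Ras-linked exchange factor, SKAP1, an adaptor protein, and HOXB6 completed the leading genes with log2 differences of 4.58, 4.08 and 4.73.

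LBP, the lipopolysaccharide-binding protein, and SMIM32, a small membrane protein, were called in PG but varied widely within it. LBP stood at 49.5 and 43.5 TPM in the BMI and 9.82, 5.29 and 23.6 TPM in the DSE libraries of PG, and at 0 to 2.82 TPM (median 0.0136) in BG. SMIM32 stood at 40.2 and 317 TPM in the BMI and 1.76, 3.97 and 3.41 TPM in the DSE libraries of PG, with the BMI libraries far above the DSE libraries, and at 0 to 0.147 TPM (median 0.0193) in BG. Their log2 differences were 4.05 ± 0.55, adjusted p = 0.000246 and 4.07 ± 0.81, adjusted p = 0.00296, and the difference of SMIM32 between stocks did not pass (adjusted p = 0.0595).

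The other abundant genes of PG differed by smaller factors. FCGBP, a large mucus-binding protein with repeated domains, stood at 10054 and 9056 TPM in the BMI and 18470, 10233 and 14131 TPM in the DSE libraries of PG, and at 2289 to 5479 TPM (median 3660) in BG (log2 difference 1.69 ± 0.23, adjusted p = 0.000302). CST6, a cysteine protease inhibitor, had 428 ± 108 TPM (SD, n = 5) in PG and 133 ± 23.7 TPM (SD, n = 6) in BG, and CNN3, an actin-binding calponin, 431 ± 134 TPM (SD, n = 5) and 139 ± 39.4 TPM (SD, n = 6). LRRC26, which opens potassium channels in secretory epithelia, and CHCHD10, a mitochondrial protein, had log2 differences of 1.10 ± 0.17, adjusted p = 0.000763 and 1.15 ± 0.19, adjusted p = 0.00101, and both fell under 1 in DSE libraries alone (0.88 and 0.85), as CNN3 did in BMI libraries alone (0.99). All 5 had no overlap between the glands. In the long reads FCGBP went the other way, with 32 and 63 reads in the libraries labelled PG and 170 and 1329 in BG.

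**Figure D2:**
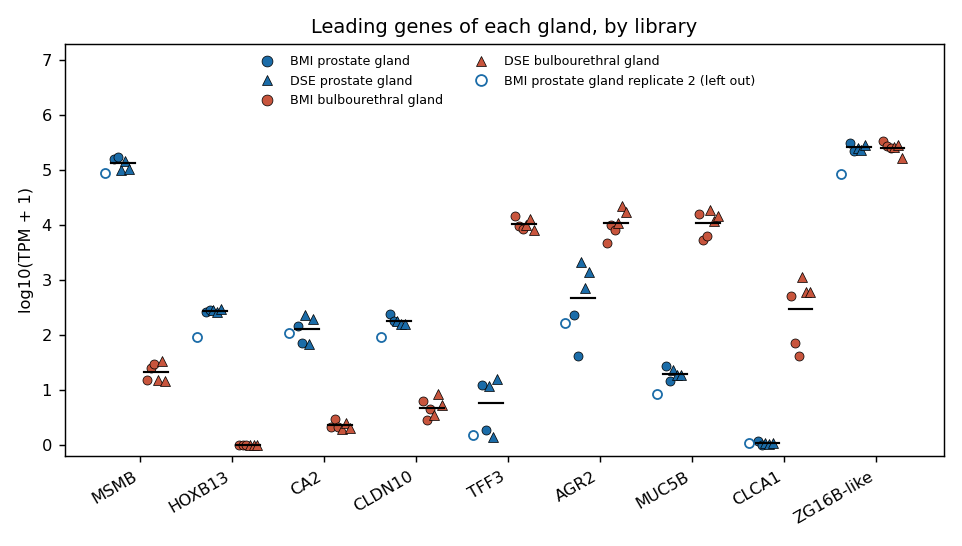
Level of 9 genes in each library, as log10(TPM + 1); circles are BMI and triangles DSE, blue is prostate gland and red bulbourethral gland, black bars are the means of the log values, and the open circle is the library left out. MSMB and HOXB13 separate the glands in one direction and TFF3, MUC5B and CLCA1 in the other, AGR2 spreads from 41.8 to 2184 TPM within PG, and the ZG16B-like gene is at the same height in both.

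TFF3, a trefoil peptide secreted with mucins, led in the BG direction (chr13:205641038-205644334, minus strand). It stood at 11.5 and 0.868 TPM in the BMI and 11.2, 0.43 and 14.9 TPM in the DSE libraries of PG, and at 8225 to 14955 TPM (median 9861) in BG. All PG values were at or below 14.9 TPM, with BMI replicate 3 and DSE replicate 2 under 1 TPM. The log2 difference was -10.84 ± 0.62, adjusted p = 2.7e-07. AGR2 (chr9:86039837-86053857, minus strand) was less cleanly divided. It stood at 231 and 41.8 TPM in the BMI and 2184, 740 and 1445 TPM in the DSE libraries of PG, and at 4892 to 22734 TPM (median 10651) in BG. The glands did not overlap, but PG spread from 41.8 to 2184 TPM, lowest in the BMI libraries, and the log2 difference was -4.78 ± 0.57, adjusted p = 0.000108.

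MUC5B, the gel-forming mucin of airway and salivary glands, was the second gene of BG by size of difference (chr2:808058-842241, named by its RefSeq gene). It stood at 26.4 and 13.9 TPM in the BMI and 22.1, 18 and 18.2 TPM in the DSE libraries of PG, and at 5376 to 19349 TPM (median 13277) in BG, with no overlap. Its log2 difference was -9.15 ± 0.31, adjusted p = 4.14e-09, a ratio of means of 624. An antisense locus of the same gene moved with it, and since the library kit does not mark strand the reads of both cannot be told apart. LMAN1L, a lectin of the early secretory pathway, stood at 4.7 and 1.07 TPM in the BMI and 5, 1.68 and 3.68 TPM in the DSE libraries of PG, and at 725 to 1872 TPM (median 1261) in BG (log2 difference -8.26 ± 0.32, adjusted p = 1.48e-08).

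CLCA1 and CLCA2, secreted and membrane proteins that regulate chloride channels and mucus, were both higher in BG. CLCA1 stood at 0.207 and 0 TPM in the BMI and 0.108, 0.0689 and 0.0919 TPM in the DSE libraries of PG, and at 41.9 to 1154 TPM (median 561) in BG (log2 difference -8.23 ± 0.64, adjusted p = 3.76e-06). CLCA2 had 1.97 ± 2.35 TPM (SD, n = 5) in PG and 143 ± 51.4 TPM (SD, n = 6) in BG (log2 difference -5.76 ± 0.30, adjusted p = 1.29e-07). Of the defence proteins, LYZ, lysozyme, stood at 0.718 and 0.195 TPM in the BMI and 10.9, 10.9 and 13.4 TPM in the DSE libraries of PG, and at 149 to 317 TPM (median 282) in BG. DEFB1, a beta-defensin on an unplaced scaffold, had 1.47 ± 1.42 TPM (SD, n = 5) in PG and 172 ± 104 TPM (SD, n = 6) in BG, and the vesicular gland had a mean of 3924 TPM. CCL28, a chemokine that draws antibody-secreting cells to mucosal glands, stood at 31.8 to 64.3 TPM (median 41) in BG and was at or below 0.0725 TPM in PG. Log2 differences were -5.78 ± 0.44, adjusted p = 3.36e-06 for LYZ, -6.09 ± 0.53, adjusted p = 8.98e-06 for DEFB1 and -5.43 ± 0.16, adjusted p = 1.73e-09 for CCL28.

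SCNN1A, the alpha subunit of the epithelial sodium channel, stood at 0.787 and 1.2 TPM in the BMI and 1.25, 0.632 and 0.688 TPM in the DSE libraries of PG, and at 71.5 to 120 TPM (median 82.1) in BG, a ratio of means of 96.2. FXYD3, a sodium pump regulator, SLC28A3, a nucleoside carrier, and SIM2, a basic helix-loop-helix factor, completed the 12 leading genes of BG, with log2 differences of -6.13, -5.97 and -5.66. None of these overlapped between the glands. Of the abundant genes, S100A6, a calcium-binding protein, stood at 178 and 53.8 TPM in the BMI and 320, 142 and 469 TPM in the DSE libraries of PG, and at 938 to 3766 TPM (median 3067) in BG (log2 difference -3.84 ± 0.52, adjusted p = 0.000256). The thymosins TMSB4X and TMSB10, which bind actin monomers, had log2 differences of -1.60 and -1.74, and the ribosomal proteins RPS29 and RPL35A -1.14 and -1.03. Near-identical copies of these 4 genes elsewhere in the genome make their levels uncertain, and with median of ratios size factors RPS29 and RPL35A were no longer called (-0.89 and -0.79).

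The most abundant gene of both glands did not separate them. It is a gene without a symbol (chr3:39344119-39360833, minus strand) that RefSeq describes as a zymogen granule protein 16 homolog B-like gene, named here after its values were seen. It stood at 313057 and 224154 TPM in the BMI and 255277, 240306 and 296064 TPM in the DSE libraries of PG, and at 170900 to 343370 TPM (median 271567) in BG. The log2 difference was 0.03 ± 0.18, adjusted p = 0.903, and the vesicular gland, epididymis and testis had means of 0.501, 2.64 and 0.184 TPM.

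The trefoil and mucous secretory cell list differed in the BG direction. Of its 24 genes 16 were tested, 12 of them were higher in BG (75%, beside 7.54% of all genes) and 1, FCGBP, in PG, and the median log2 difference was -2.95, beside -0.22 over all genes. Beside TFF3, CLCA1, LYZ and AGR2, BPIFB2, a lipid-binding protein of mucosal fluids, was listed at 0 in all 5 PG libraries and at 1.88 to 522 TPM (median 28.6) in BG, highest in DSE replicate 3. TFF2, another trefoil peptide, was listed at 0 in PG and had a mean of 39.7 TPM in BG. CREB3L1, a membrane-bound secretory transcription factor, had means of 91.7 TPM in PG and 587 TPM in BG, and ERN2, the stress sensor IRE1-beta of mucous cells, 11.8 and 124 TPM.

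Of 18 mucin genes 7 were tested, and 2, MUC5B and MUC5AC, were higher in BG (28.6%, beside 7.54% of all genes) and none in PG by limma (1 at an unadjusted p under 0.05), with a median of -0.32. MUC5AC, the gel-forming mucin of the stomach surface, was far lower than MUC5B, at 0.361 to 4.41 TPM (median 1.14) in BG and at or below 0.0344 TPM in PG (log2 difference -1.16 ± 0.29, adjusted p = 0.0114), and was no longer called without DSE BG replicate 3 (-0.86) or without BMI PG replicate 3 and DSE PG replicate 2 (-1.18). The membrane mucin MUC1 had means of 43.5 TPM in PG and 52.2 TPM in BG and was not called (adjusted p = 0.288). Summed over the list, mucins held 76.1 to 129 TPM in PG and 5476 to 19430 TPM in BG.

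Enzymes of mucin O-glycosylation were called in both directions. Of 26 tested, 5 were higher in BG (19.2%, beside 7.54% of all genes) and 2 in PG (7.69%, beside 3.23%), with a median of -0.21, the same as that of all genes to within 0.01. The polypeptide GalNAc-transferases GALNT12 and GALNT3, which start O-glycan chains, stood in BG at 130 to 206 TPM (median 179) and at 25.3 to 49.5 TPM (median 38.5), against 25.3 ± 11.7 TPM (SD, n = 5) and 6.48 ± 1.98 TPM (SD, n = 5) in PG (log2 differences -2.87 ± 0.34, adjusted p = 0.000102 and -2.42 ± 0.16, adjusted p = 9.89e-07). In the other direction, C1GALT1, which builds the core 1 structure, and B3GNT3, which extends it, had 15.8 ± 2.99 TPM (SD, n = 5) and 89.1 ± 50.2 TPM (SD, n = 5) in PG, against 3.05 ± 1.64 TPM (SD, n = 6) and 8.26 ± 3.82 TPM (SD, n = 6) in BG (log2 differences 2.12 ± 0.28, adjusted p = 0.000212 and 3.29 ± 0.32, adjusted p = 2.45e-05).

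Genes of sialic acid synthesis and transfer were higher in BG in 7 of 23 tested (30.4%, beside 7.54% of all genes) and in PG in 1, ST8SIA1 (4.35%, beside 3.23%), with a median of -0.38. ST8SIA1 was no longer called without BMI PG replicate 3 and DSE PG replicate 2, with BMI PG replicate 2 or with the replicate number as a block. GNE, the rate-limiting enzyme of sialic acid synthesis, stood at 9.34 and 13 TPM in the BMI and 10, 10.3 and 12.7 TPM in the DSE libraries of PG, and at 107 to 194 TPM (median 167) in BG. ST3GAL4 and ST6GAL1, which cap glycans with sialic acid, stood in BG at 291 to 489 TPM (median 409) and at 30 to 82.2 TPM (median 68.8), against 20.7 ± 10.8 TPM (SD, n = 5) and 4.67 ± 1.79 TPM (SD, n = 5) in PG. ST6GALNAC1, which adds sialic acid to the first sugar of O-glycans, had 29.4 ± 12.8 TPM (SD, n = 5) in PG and 251 ± 116 TPM (SD, n = 6) in BG. These 4 genes did not overlap between the glands, with log2 differences of -3.74 ± 0.16, adjusted p = 3.31e-08, -4.31 ± 0.25, adjusted p = 3.44e-07, -3.55 ± 0.20, adjusted p = 2.38e-07 and -3.11 ± 0.39, adjusted p = 0.000149 in that order. Summed over the list, PG held 682 to 864 TPM and BG 1497 to 2278 TPM.

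Of 39 genes of endoplasmic reticulum folding and export, 9 were higher in BG (23.1%, beside 7.54% of all genes) and 1 in PG (2.56%, beside 3.23%), and 35 of 39 differences were below 0 (median -0.57, beside -0.22 over all genes). The count in BG moved with the scaling and the libraries: it was 3 with median of ratios size factors and 4 without BMI PG replicate 3 and DSE PG replicate 2. KDELR3 and KDELR2, which return folding proteins to the reticulum, had log2 differences of -2.10 ± 0.19, adjusted p = 1.11e-05 and -1.28 ± 0.14, adjusted p = 4.15e-05, and TMED3, a cargo receptor, -1.57 ± 0.27, adjusted p = 0.00115. ERN1, the stress sensor IRE1-alpha, was the member higher in PG, at 69.3 and 58.1 TPM in the BMI and 94.3, 94.6 and 103 TPM in the DSE libraries of PG, and at 15.3 to 42.9 TPM (median 30.5) in BG (log2 difference 1.53 ± 0.27, adjusted p = 0.00145). Both IRE1 genes were therefore called, ERN1 in PG and ERN2 in BG.

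**Figure D3:**
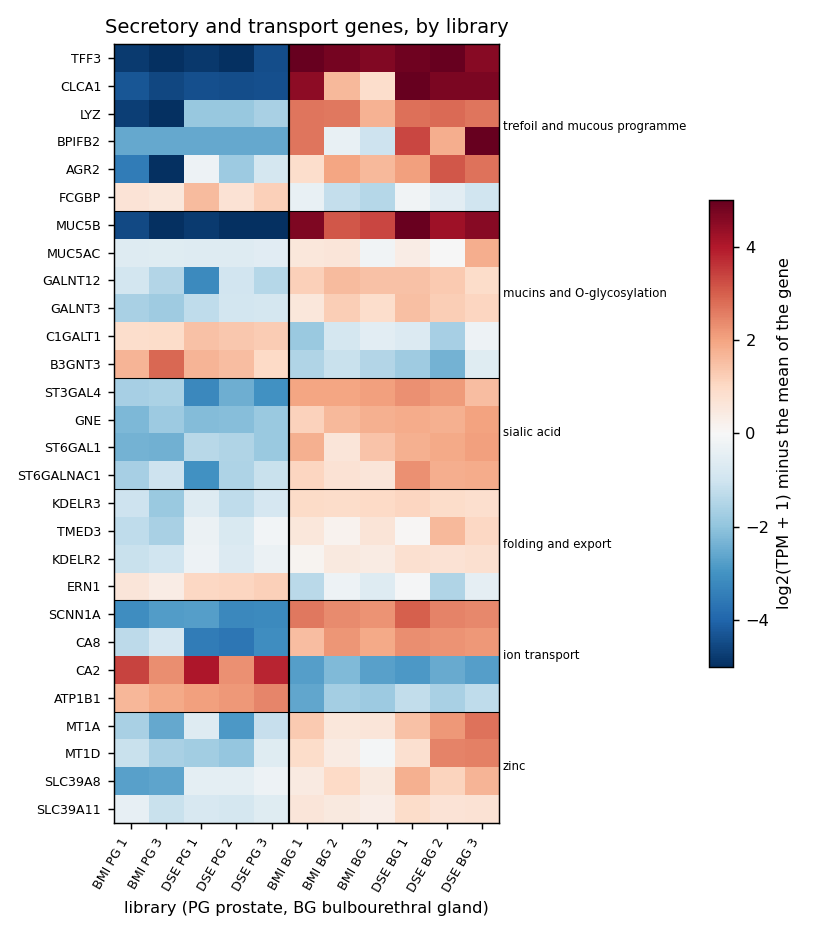
Secretory and transport genes (down) in the 5 prostate and 6 bulbourethral gland libraries (across), as log2(TPM + 1) minus the mean of the gene over the 11 libraries, with colours ending at 5 in either direction. Most genes change colour at the line between the glands; FCGBP, C1GALT1, B3GNT3, ERN1, CA2 and ATP1B1 are higher on the prostate side.

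The HOX genes divided by cluster. Of 26 tested, 9 were higher in PG (34.6%, beside 3.23% of all genes) and 4 in BG (15.4%, beside 7.54%). All 9 higher in PG were of the HOXB cluster on chromosome 12 and were every HOXB gene tested, from HOXB2 to HOXB13, with a median of 2.52. HOXB6 had 49.7 ± 16.8 TPM (SD, n = 5) in PG and 0.884 ± 0.223 TPM (SD, n = 6) in BG (log2 difference 4.73 ± 0.19, adjusted p = 1.58e-08), HOXB9 13.4 ± 2.46 TPM (SD, n = 5) and 0.206 ± 0.159 TPM (SD, n = 6), and HOXB8 9.58 ± 3.64 TPM (SD, n = 5) and 0.217 ± 0.141 TPM (SD, n = 6). HOXB13 was the most abundant and HOXB2 the least different, at means of 6.74 TPM in PG and 2.61 TPM in BG. Summed over the cluster, PG held 358 to 441 TPM and BG 6.84 to 10.5 TPM. The HOXA cluster had 2 of 9 genes higher in BG (HOXA7 and HOXA11, median -0.83) and the HOXD cluster 2 of 8 (HOXD1 and HOXD8, median -0.34), and neither had one higher in PG. No HOXC gene passed the filter. HOXD13, the hindmost member of its cluster, had means of 53.7 TPM in PG and 68.9 TPM in BG and was not called (adjusted p = 0.107). SKAP1 (chr12:24371700-24680257), among the 12 leading genes of PG, lies on the same chromosome as HOXB2 (chr12:24796790-24799303), and stood at 32 and 20.6 TPM in the BMI and 28.4, 28.6 and 32.1 TPM in the DSE libraries of PG, and at 0.274 to 1.51 TPM (median 0.669) in BG.

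**Figure D4:**
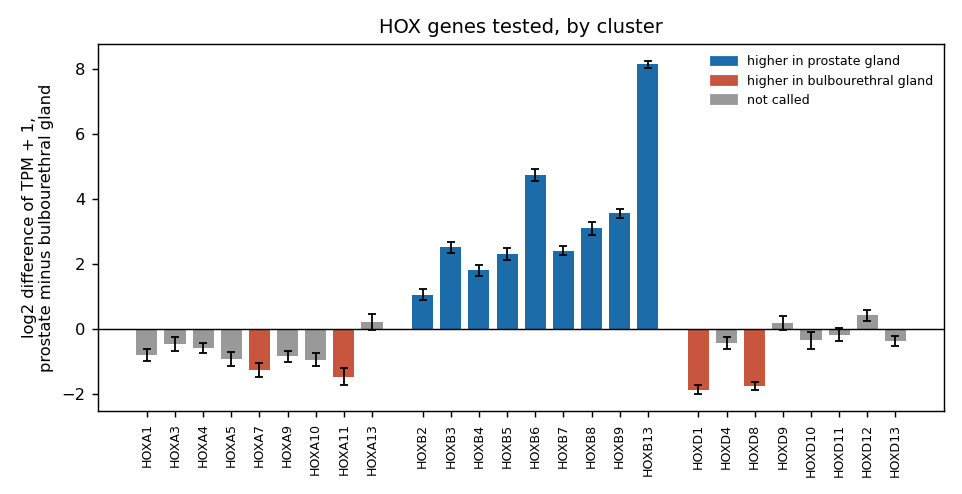
Log2 difference of TPM + 1 between prostate and bulbourethral gland for the 26 HOX genes tested, by cluster and number; error bars are 1 standard error of the limma fit on 11 libraries. All 9 HOXB genes are above 1, and the called genes of the A and D clusters are below -1.

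HOXB6, HOXB8 and HOXB9 were also measured in other tissues of the tract: the vesicular gland had means of 248, 78.7 and 24.9 TPM, and the epididymis 167, 114 and 49.3 TPM. GATA2 had a mean of 305 TPM in the vesicular gland.

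Of 42 epithelial transcription factors tested, 11 were higher in BG (26.2%, beside 7.54% of all genes) and 5 in PG (11.9%, beside 3.23%), with a median of -0.27. PITX1, a paired-type homeobox factor, stood in BG at 334 to 521 TPM (median 446), against 91.9 ± 67.2 TPM (SD, n = 5) in PG (log2 difference -2.43 ± 0.30, adjusted p = 0.000148). ELF5, an ETS factor of secretory epithelium, stood at 10.7 and 4.83 TPM in the BMI and 31.8, 16.3 and 24.6 TPM in the DSE libraries of PG, and at 49.6 to 196 TPM (median 86) in BG (log2 difference -2.62 ± 0.32, adjusted p = 0.00014). PAX9, SIX2, SOX2, SOX4, FOXA1, FOXI1 and TP63 were among the others higher in BG. IRX3, IRX5, ISL1 and GRHL3 joined GATA2 in PG.

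Of 15 androgen and steroid genes tested, 1 was higher in each gland (6.67%, beside 3.23% of all genes in PG and 7.54% in BG), with a median of 0.09, and 3 were higher in PG with median of ratios size factors. HSD17B6, which oxidises androgens, stood at 90 and 69.3 TPM in the BMI and 119, 38.6 and 95 TPM in the DSE libraries of PG. In BG it stood at 12.6 to 66.8 TPM (median 30.5), and the glands overlapped. Its log2 difference was 1.38 ± 0.36, adjusted p = 0.0134 in limma. The call was lost without BMI BG replicate 1 and DSE BG replicate 3 (adjusted p = 0.0546). It was also lost in BMI libraries alone (0.61, adjusted p = 0.174) and with no filter (adjusted p = 0.0514). The member higher in BG was SCNN1A. SRD5A1, which makes dihydrotestosterone, had means of 13.8 and 10.5 TPM and was not called (adjusted p = 0.198).

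Among ion and water transport genes, 8 of 34 tested were higher in BG (23.5%, beside 7.54% of all genes) and 3 in PG (8.82%, beside 3.23%), although the summed level of the list was higher in PG (5238 to 6223 TPM against 2704 to 3978 TPM), of which ATP1B1 alone held 2277 to 3986 TPM. CA8, a carbonic anhydrase-related protein without catalytic activity, stood at 14.2 and 19.8 TPM in the BMI and 2.27, 2.06 and 3.38 TPM in the DSE libraries of PG, and at 106 to 185 TPM (median 167) in BG (log2 difference -4.44 ± 0.43, adjusted p = 1.99e-05). AQP3, a water and glycerol channel, and the proton pump subunits ATP6V0A4 and ATP6V1B1 were also higher in BG. With median of ratios size factors 6 members were higher in PG.

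Of 22 zinc genes tested 6 were higher in BG (27.3%, beside 7.54% of all genes) and none in PG by limma (3 at an unadjusted p under 0.05), although 2 passed in PG with median of ratios size factors and 1 without BMI PG replicate 3 and DSE PG replicate 2 or without BMI BG replicate 1 and DSE BG replicate 3. The metallothioneins MT1A and MT1D, which bind zinc and are close paralogs whose reads may be shared, stood in BG at 23.1 to 108 TPM (median 42.3) and at 25.3 to 160 TPM (median 49.8), against 4.66 ± 3.42 TPM (SD, n = 5) and 10.3 ± 4.66 TPM (SD, n = 5) in PG (log2 differences -3.34 ± 0.40, adjusted p = 0.000112 and -2.65 ± 0.42, adjusted p = 0.000792). SLC39A8 and SLC39A11, zinc importers, had log2 differences of -2.57 ± 0.26, adjusted p = 3.03e-05 and -1.40 ± 0.16, adjusted p = 6.72e-05. The 3 genes under an unadjusted p of 0.05 in PG were SLC30A3, MT3 and SLC30A2. Their adjusted p were 0.00569, 0.026 and 0.0412 by limma, but their log2 differences of 0.98, 0.76 and 0.67 were under the threshold of size. MT3, another metallothionein, had means of 111 TPM in PG and 64.8 TPM in BG. In citrate and polyamine metabolism 1 of 28 tested was higher in each gland (3.57%, beside 3.23% of all genes in PG and 7.54% in BG): GOT1, which makes oxaloacetate from aspartate, in PG (log2 difference 1.03 ± 0.20, adjusted p = 0.00265) and IDH1, a cytosolic isocitrate dehydrogenase, in BG (-1.13 ± 0.21, adjusted p = 0.00174). GOT1 overlapped between the glands, and neither passed without BMI PG replicate 3 and DSE PG replicate 2 (0.96 and -0.92). With median of ratios size factors IDH1 was no longer called (-0.89) and 2 members were higher in PG; with BMI PG replicate 2 GOT1 was not called (0.87), while 2 other members were higher in PG. CS, citrate synthase, had a log2 difference of 0.75, under the threshold of size.

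Of 21 proteases and inhibitors tested, 6 were higher in BG (28.6%, beside 7.54% of all genes) and 2 in PG (9.52%, beside 3.23%). WFDC2, a secreted inhibitor of the whey acidic protein family, stood at 11.8 and 7.06 TPM in the BMI and 19.9, 2.34 and 10.5 TPM in the DSE libraries of PG, and at 145 to 673 TPM (median 279) in BG (log2 difference -4.81 ± 0.49, adjusted p = 3.32e-05). SERPINA1, alpha-1-antitrypsin, had 58.1 ± 17.5 TPM (SD, n = 5) in PG and 182 ± 37.4 TPM (SD, n = 6) in BG (log2 difference -1.68 ± 0.23, adjusted p = 0.000285), and PRSS23, a serine protease, overlapped between the glands (-1.97 ± 0.50, adjusted p = 0.0113). ACP3, prostatic acid phosphatase, was higher in PG but low: it stood at 4.52 and 2.21 TPM in the BMI and 6.23, 5.12 and 8.96 TPM in the DSE libraries of PG, and at 0.346 to 1.23 TPM (median 0.828) in BG (log2 difference 1.71 ± 0.25, adjusted p = 0.000406). The epididymis had a mean of 13.6 TPM.

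Of 42 genes of growth factor, Wnt, Hedgehog and BMP signalling, 8 were higher in PG (19%, beside 3.23% of all genes) and 4 in BG (9.52%, beside 7.54%), with a median of 0.17. Beside EGF those higher in PG included VEGFA, FGF2, RSPO3, AXIN2, BMP7 and GREM1. AXIN2, a target of Wnt signals, stood at 8.78 and 8.53 TPM in the BMI and 17.9, 5.26 and 19.8 TPM in the DSE libraries of PG, and at 1.01 to 3.55 TPM (median 1.83) in BG (log2 difference 1.99 ± 0.35, adjusted p = 0.00148). BMP7, a bone morphogenetic protein, stood at 26.5 and 22.7 TPM in the BMI and 18.4, 0.632 and 19.7 TPM in the DSE libraries of PG, and at 1.1 to 6.59 TPM (median 2.22) in BG; DSE replicate 2 lay below every BG library, and the call (log2 difference 2.02 ± 0.67, adjusted p = 0.0392) was lost in 8 of the 11 fits that leave out 1 library. SMO, the transducer of Hedgehog signals, FGF7, NRG4 and WNT7B were higher in BG; of the list, 2 were higher in BG with median of ratios size factors, with the replicate number as a block, or without BMI PG replicate 3 and DSE PG replicate 2.

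Some lists of markers of other cell types had genes called between the glands. Of 14 smooth muscle markers 6 were higher in PG (42.9%, beside 3.23% of all genes) and none in BG (median 1.56, beside -0.22 over all genes); the summed list stood at 564 and 279 TPM in the BMI PG libraries, 3860, 2284 and 4778 TPM in the DSE PG libraries and 265 to 991 TPM in BG. Basal epithelial markers were higher in BG in 5 of 7 tested (71.4%, beside 7.54% of all genes; median -2.18); without BMI PG replicate 3 and DSE PG replicate 2 there were 3. KRT5, a keratin of basal cells, stood at 2 and 1.44 TPM in the BMI and 5.06, 0.162 and 1.91 TPM in the DSE libraries of PG, and at 28.8 to 206 TPM (median 50.4) in BG (log2 difference -4.47 ± 0.49, adjusted p = 5.16e-05), and the summed list was 88.6 to 122 TPM in PG and 161 to 493 TPM in BG. KRT15, another of them, overlapped between the glands and passed the threshold of size only just. Plasma and B cell markers were higher in BG in 3 of 7 (JCHAIN, MZB1 and POU2AF1; 42.9%, beside 7.54% of all genes), with sums of 21.5 to 49.5 TPM in PG and 38.3 to 352 TPM in BG. The macrophage markers AIF1 and C1QC, of 11 tested, were higher in BG (18.2%, beside 7.54% of all genes). Neither passed without BMI PG replicate 3 and DSE PG replicate 2, without BMI BG replicate 1 and DSE BG replicate 3, or with median of ratios size factors, and 1 macrophage marker passed with the replicate number as a block. Neither endothelial nor fibroblast markers had a called gene in limma, with 12 and 16 tested (9 and 2 at an unadjusted p under 0.05). All 12 endothelial differences were above 0 (median 0.66, beside -0.22 over all genes). CLDN5, ROBO4, TIE1, ESAM, CDH5 and EGFL7 had adjusted p of 0.00411 to 0.0473 in limma, but differences under the threshold of size. Fibroblast differences were above 0 in 6 genes and below 0 in 10 (median -0.23). With median of ratios size factors 4 endothelial markers were higher in PG, and 2 without BMI BG replicate 1 and DSE BG replicate 3. Without BMI PG replicate 3 and DSE PG replicate 2, 1 fibroblast marker was higher in PG. Fewer cells of a type and less RNA per cell cannot be told apart in such bulk samples, and the part of these cell types in the differences above was not tested.

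Skeletal muscle markers summed to 3056 TPM in DSE BG replicate 3 and 784 TPM in BMI BG replicate 1, and to 6.42 to 60.6 TPM in the other 9 libraries; none of 11 tested was called by limma (3 at an unadjusted p under 0.05), although 1 was higher in BG with BMI PG replicate 2. Without DSE BG replicate 3 and BMI BG replicate 1, 496 genes were higher in PG and 1133 in BG. The general epithelial genes KRT8 and EPCAM had means of 546 and 607 TPM in PG and 618 and 738 TPM in BG and were not called (adjusted p = 0.335 and 0.19). Of 28 keratin and junction genes 2 were higher in each gland (7.14%, beside 3.23% of all genes in PG and 7.54% in BG), CLDN10 and CDH2 in PG and KRT5 and KRT15 in BG. There was 1 in each gland without BMI PG replicate 3 and DSE PG replicate 2, and 1 in BG with median of ratios size factors, with the replicate number as a block or without BMI BG replicate 1 and DSE BG replicate 3. CDH2, N-cadherin, stood at 0.576 and 0.576 TPM in the BMI and 4.83, 3.88 and 3.24 TPM in the DSE libraries of PG, and at 0.103 to 0.916 TPM (median 0.2) in BG. Vesicular gland markers PSP-I, AWN, SPMI and BSP1 were each at or below 9.2 TPM in the 5 PG libraries and highest in BMI BG replicate 2 (73.5, 27.7, 33.1 and 10.8 TPM). SAL1, listed among them, was at 7.66 TPM or less in the vesicular gland itself and stood at 609 and 9.96 TPM in the BMI and 338, 60580 and 1777 TPM in the DSE libraries of PG, so 1 library carried its mean in PG. It was the sole gene called of 5 tested from the vesicular gland list (20%, beside 3.23% of all genes; log2 difference 5.04 ± 1.47, adjusted p = 0.0225), and the call was lost with BMI PG replicate 2, without BMI PG replicate 1, without DSE BG replicate 1, with no filter and in either stock alone. Of the lists for nerve, T cells, cilia and epididymis, 1 member each was higher in BG (GFRA3, CD247, TEKT1 and ADAM28, of 8, 9, 2 and 1 tested) and none in PG, beside 7.54% of all genes higher in BG. CD247 was not called with median of ratios size factors or without BMI PG replicate 3 and DSE PG replicate 2, and 1 nerve marker was higher in PG with median of ratios size factors. The urothelial, adipocyte and testis lists had none called by limma among 2, 3 and 2 tested. In the adipocyte list 1 gene had an unadjusted p under 0.05. It was GPD1 (log2 difference -0.89, adjusted p = 0.000577 by limma), which fell short of the threshold of size.

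**Figure D5:**
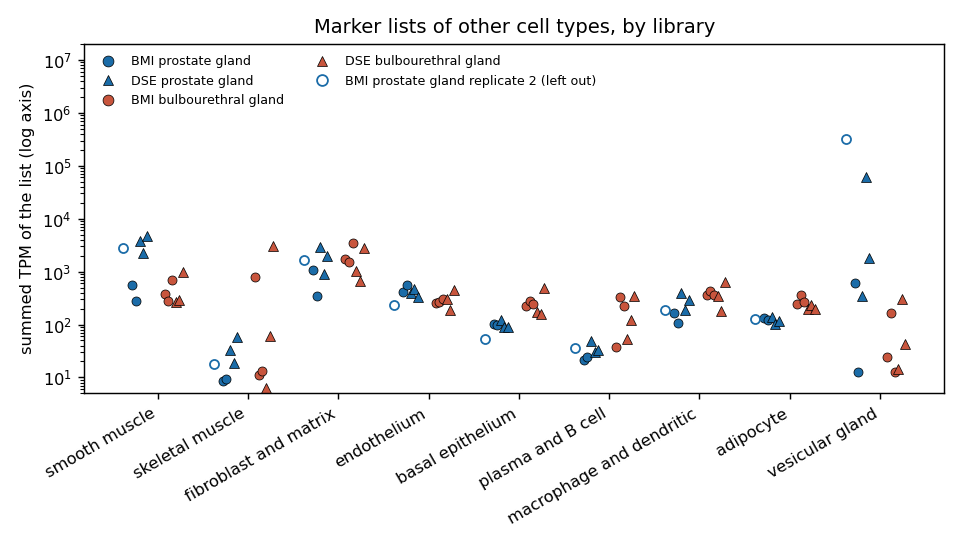
Summed TPM of 9 marker lists in each library on a log axis; circles are BMI and triangles DSE, blue is prostate gland and red bulbourethral gland, and the open circle is the library left out. Smooth muscle is high in the 3 DSE prostate libraries (2284 to 4778 TPM), skeletal muscle in 2 bulbourethral libraries (784 and 3056 TPM), and the vesicular gland list in the library left out (322974 TPM) and in DSE PG replicate 2 (60601 TPM).

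Whether the difference between the glands depended on the stock was tested by the interaction of gland and stock. It passed in 24 of 14447 genes (0.166%; 1357 genes at an unadjusted p under 0.05, in limma), and the count rested on single libraries. It was 6 without DSE BG replicate 1, 9 to 14 without BMI PG replicate 1, BMI PG replicate 3, DSE PG replicate 3, BMI BG replicate 2 or BMI BG replicate 3, 125 without DSE BG replicate 3, and 544 without that library and BMI BG replicate 1, the 2 with skeletal muscle transcripts. It was 0 in limma without BMI PG replicate 3 and DSE PG replicate 2 (606 genes at an unadjusted p under 0.05), and 1 without BMI PG replicate 3 and DSE BG replicate 2. Only 2 BMI PG libraries entered. The fits without BMI PG replicate 1 or 3 left 1 BMI PG library, whose spread was taken from the other groups. Their counts therefore do not measure the spread within BMI PG. The 5 symbols of smallest adjusted p fell in 2 patterns. ADORA1, an adenosine receptor, stood at 14.4 and 21.9 TPM in the BMI and 0, 0.166 and 0 TPM in the DSE libraries of PG, and at 38.6 to 96.4 TPM (median 61.5) in BG; CRISP3, a cysteine-rich secretory protein, stood at 88 and 149 TPM in the BMI and 9.92, 8.51 and 12.8 TPM in the DSE libraries of PG, and at 709 to 970 TPM (median 759) in BG. Both were lower in PG in each stock, and more so in DSE (interaction, BMI minus DSE, 3.67 ± 0.38, adjusted p = 0.00523 and 3.16 ± 0.35, adjusted p = 0.00595). Of the genes named for other reasons, CA8 and LYZ also passed (2.71 ± 0.34, adjusted p = 0.015 and -2.76 ± 0.39, adjusted p = 0.0213), with gland differences of -2.93 in BMI and -5.64 in DSE for CA8 and -7.31 and -4.56 for LYZ.

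GREM1, a BMP antagonist, SLC24A3, a sodium-calcium exchanger, and NRIP3 differed the other way. GREM1 stood at 1.18 and 0.748 TPM in the BMI and 16.1, 12.7 and 16 TPM in the DSE libraries of PG, and at 0 to 0.706 TPM (median 0.118) in BG, with the DSE PG libraries above 12 TPM and the BMI PG libraries near 1 TPM. NRIP3 stood at 0.628 and 0.604 TPM in the BMI and 10.5, 9.97 and 12.8 TPM in the DSE libraries of PG, and at 0.457 to 1.48 TPM (median 0.768) in BG. SLC24A3 stood at 2.2 and 1.08 TPM in the BMI and 14, 9.91 and 12.6 TPM in the DSE libraries of PG, and at 1.21 to 6.37 TPM (median 2.76) in BG, so that the difference between glands was 2.37 in DSE and -1.16 in BMI. Interactions were -3.28 ± 0.32, adjusted p = 0.00523, -3.00 ± 0.33, adjusted p = 0.00595 and -3.53 ± 0.36, adjusted p = 0.00523. Smooth muscle markers also separated the DSE from the BMI libraries among the 5 PG libraries used. In BMI PG replicate 2, which was left out, these markers summed to 2808 TPM. There GREM1, SLC24A3 and NRIP3 stood at 11.5, 9.8 and 0.227 TPM. The part of smooth muscle in the result was not tested.

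Iso-seq, PacBio long reads of full-length cDNA counted per gene, gave a second measurement with 1 library of each stock and gland, holding 263309 to 388569 full-length reads each. The library labelled BMI prostate gland had 4029 reads of PSP-I, 2581 of SPMI, 1848 of AWN and 10552 of FN1, genes of the vesicular gland libraries (4309, 1832, 1353 and 6163 reads in that of BMI), but 11 of MSMB and 3 of HOXB13. The DSE PG library had 123 of MSMB, 218 of HOXB13 and none of PSP-I, SPMI or AWN. With all 4 libraries, edgeR's quasi-likelihood test called 13 of 5587 genes higher in PG (0.233%) and 26 in BG (0.465%), with 363 genes at an unadjusted p under 0.05. Without the library labelled BMI prostate gland, 62 of 6900 genes were higher in PG (0.899%) and 92 in BG (1.33%); that fit has no term for stock, and the lone PG library was assumed to vary like the others. Of those, 49 of 62 and 62 of 92 were called in the same direction by RNA-seq. Among the genes called by RNA-seq and counted in this fit, 157 of 177 in PG and 500 of 558 in BG had the same sign.

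Long reads per gene lay in the direction of the short reads for most leading genes that entered the test. HOXB6, RGL3, SKAP1, SMIM32 and LBP of PG and FXYD3, DEFB1 and CCL28 of BG did not enter it. Levels did not follow. The DSE PG long-read library had 123 reads of MSMB and 218 of HOXB13, at short-read DSE PG means of 119867 and 286 TPM. TFF3 had 64 and 90 reads in the BMI and DSE BG libraries and 0 in both labelled PG, MUC5B 124 and 925 against 0 and 0, CLCA1 88 and 1187 against 1 and 0, and LMAN1L 196 and 122 against 0 and 0; all 4 were called in BG with and without the library labelled BMI prostate gland (adjusted p = 0.00813, 0.00677, 0.0142 and 0.00677, by edgeR). HOXB13, CA2 and MSMB were called in PG without that library (adjusted p = 6.33e-07, 1.48e-05 and 1.48e-05), and with it MSMB was not (adjusted p = 0.0769), while HOXB13 and CA2 did not enter the test. AGR2 had 292 and 305 reads in BG and 6 and 53 in PG and did not pass (adjusted p = 0.0598 with all libraries and 0.0746 without). FCGBP went the other way from the short reads, with 170 and 1329 reads in BG and 32 and 63 in PG (adjusted p = 0.295 and 0.022). The ZG16B-like gene had 1039 and 1043 reads in BG and 84 and 463 in PG and was not called (adjusted p = 0.551 and 0.521).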

How the data were processed

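RNA-seq and Iso-seq of prostate and bulbourethral gland were used. RNA-seq libraries were made with a kit that does not mark strand, from poly-A RNA by the study's methods and from rRNA-depleted RNA by the labels. The authors trimmed the reads and quantified transcripts with Salmon (1.9.0) against Ensembl and Iso-seq transcripts of Sscrofa11.1, and deposited TPM per transcript and library. For Iso-seq the authors deposited counts of full-length reads per isoform and library. The small RNA table was not used here.

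TPM and read counts were summed per gene by the annotation that accompanies the tables. Genes took the symbol given for their ID, or else that of the RefSeq gene of the same build that overlaps them on the same strand. Genes with at least 1 TPM in 3 of the 11 libraries were kept. log2(TPM + 1) was fitted with limma (3.58.1, R 4.3.3) on breed and gland, with Benjamini-Hochberg adjustment over all 14447 genes. Differences on this scale understate the change of genes with low TPM. Iso-seq counts were tested with edgeR (4.0.16), quasi-likelihood, with DESeq2 (1.42.0) as an alternative. On simulated data, limma recovered 64.0%, 96.5% and 100.0% of 200 genes planted at log2 differences of 1, 2 and 4 among 14447 genes. Planted likewise among 5587 genes, edgeR recovered 0.0%, 71.5% and 100.0%. Recovery meant an adjusted p below 0.05 and the planted sign. It did not require the log2 difference of at least 1 that a call needs, so it is not the rate of calls.

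Genes were named by rule: of the called genes with a symbol and no overlap, the 12 of largest log2 difference and the 8 of largest TPM difference in each direction, then up to 4 called genes of each list, then the 5 of smallest interaction p. Some genes and motifs are not reported here. Other genes given with values were chosen after their values were seen. The members and lists were chosen with earlier results of these data known. Alternatives covered the pseudocount, filters, scalings, libraries and covariates.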

Additional observations from a re-analysis of the deposited data

Results flagged for a closer look

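Of 188 groups of libraries examined over the named genes, 9 held a library far from the rest by Dixon's criterion, which chance alone passes in about 1 of 20 groups. In PG these were SKAP1 in BMI replicate 3 (20.6 TPM), BMP7 in DSE replicate 2 (0.632 TPM), and GALNT12 in DSE replicate 1 (6.66 TPM), each below the other 4 libraries, and FXYD3 in BMI replicate 1 (12.8 TPM), above them. In BG, LYZ in BMI replicate 3 (149 TPM) and S100A6 in DSE replicate 1 (938 TPM) lay below the rest, and LBP in DSE replicate 3 (2.82 TPM), KRT5 in DSE replicate 3 (206 TPM) and GREM1 in BMI replicate 2 (0.706 TPM) above. DSE BG replicate 3, which holds 2 of these values, is the library with 3056 TPM of skeletal muscle markers, whose part in them was not tested.

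The difference between the glands itself differed between the stocks in 24 genes by the interaction term of limma. Among named genes the interaction (BMI minus DSE, log2) was -3.53 for SLC24A3, -3.28 for GREM1, -3.00 for NRIP3, -2.76 for LYZ, 3.67 for ADORA1, 3.16 for CRISP3 and 2.71 for CA8. For SLC24A3 the stocks moved in opposite directions, with -1.16 in BMI and 2.37 in DSE.

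BMI PG replicate 2, which entered only an alternative fit, held 322974 TPM of vesicular gland markers, against 12.7 to 1783 TPM in 4 other PG libraries, 60601 TPM in DSE PG replicate 2, through SAL1, and 12.4 to 298 TPM in the 6 BG libraries.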

How the results depend on the processing

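Of 75 called named genes, 58 were called in the same direction under every alternative that gave them a value (some were filtered out or removed in some, such as MSMB without the 50 most abundant genes), and 76 of 1920 alternative values fell short of the threshold, none with the opposite sign. Leaving out each library in turn gave 388 to 530 genes higher in PG, 944 to 1296 higher in BG and 6 to 125 with a difference between stocks. The count in PG rose to 978 without the 50 most abundant genes. The count in BG was 1921 with BMI libraries alone and 685 with DSE libraries alone. The count of interactions was 11 with no filter, 8 with BMI PG replicate 2, 1 without the libraries of lowest transcript integrity (BMI PG replicate 3 and DSE BG replicate 2), and, in alternatives chosen after seeing the data, 0 without the PG libraries that stand apart (606 at an unadjusted p under 0.05 in limma) and 544 without the BG libraries with skeletal muscle. Iso-seq counts in PG and BG were 91 and 99 with no filter, 1 and 13 with no breed term, 25 and 46 with DESeq2, and 62 and 92 without the library labelled BMI prostate gland. The log2 difference of SLC24A3 turned from 0.80 to -1.16 in BMI libraries alone. The ZG16B-like gene turned sign at -0.25 with BMI PG replicate 2, -0.12 in BMI libraries alone, -0.04 without the BG libraries with skeletal muscle, and lay between -0.10 and 0.15 with 1 library left out. The causes were not tested. With the replicate number as a block, 479 and 997 genes were higher in PG and BG; same-numbered libraries of a stock correlated at -0.0938 to 0.279, so the numbers were not taken to pair the samples. Read totals were not used here, and 11 libraries limit the precision.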
